A study of Mus musculus with 7 samples.

Results

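The control myotubes of this microarray series were described here on their own, from the 4 EXO-Post BSA arrays of the 7 arrays analysed in the series. C2C12 is an established mouse skeletal muscle line whose myoblasts fuse into multinucleated myotubes when serum is lowered. In the 4 EXO-Post BSA cultures, C2C12 cells were given exosomes, small vesicles of endosomal origin, released by other C2C12 cells that had received the fatty acid carrier bovine serum albumin (BSA) without palmitate. Recipient cells stayed with the exosomes without serum for 24 h. From each culture, 0.1 µg of RNA was labelled and hybridised to 1 single-colour Agilent mouse array. All 4 cultures therefore shared the line, the exosome exposure and the BSA pre-treatment of the donor cells, and no culture without exosomes was analysed here. The labels call the cell type myoblast, whereas the study's text describes the recipients as differentiated myotubes. No condition was compared with another, so all values below are levels and spreads of a single group, with no p-value.

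A gene was counted as measured when at least 1 of its probes was well above background on all 4 arrays, by the scanner software's own call, and the brightest such probe stood for the gene. Of 31829 gene names on the array, 14940 were measured, from 18290 of 39429 probes. The level of a gene was its log2 signal minus the 75th percentile of the array's signals, so that a level of 0 lies at that percentile and 1 unit is a doubling. Over the measured genes the median level was 0.27, and levels ran from -4.72 to 8.53. Ranks are given from 1 for the brightest gene. Because probes differ in how brightly they report the same amount of RNA, a rank orders signals and not molecules.

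Skeletal muscle differentiation is driven by the myogenic basic helix-loop-helix factors, among which Myod1 commits cells to the lineage and Myog, myogenin, drives terminal differentiation. These proteins bind E-boxes, short sites with the letters CANNTG, beside genes for the contractile apparatus, the acetylcholine receptor and muscle enzymes. As myoblasts leave the cell cycle and fuse, cyclin-dependent kinase inhibitors hold them out of division, while embryonic and perinatal isoforms of the sarcomere precede the adult ones. Skeletal muscle is also a consumer of glucose and fatty acids and a secretory tissue whose products are known as myokines.

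The stretches of 250 bases before the RefSeq start of 3 of the 4 marker genes, and of Chrna1, the brightest of the acetylcholine receptor genes, are shown because these are textbook targets of the myogenic factors. Coordinates are those of GRCm38.p6, each sequence runs 5′ to 3′ towards the start, and capitals mark matches to CANNTG or TATAAA on either strand.
Myog, chr1:134289754-134290003, plus strand: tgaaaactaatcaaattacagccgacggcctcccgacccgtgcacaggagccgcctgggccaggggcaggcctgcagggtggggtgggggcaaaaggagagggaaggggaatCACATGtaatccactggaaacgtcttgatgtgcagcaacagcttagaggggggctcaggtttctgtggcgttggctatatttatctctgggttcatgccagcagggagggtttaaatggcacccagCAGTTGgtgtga
Ckm, chr7:19410844-19411093, plus strand: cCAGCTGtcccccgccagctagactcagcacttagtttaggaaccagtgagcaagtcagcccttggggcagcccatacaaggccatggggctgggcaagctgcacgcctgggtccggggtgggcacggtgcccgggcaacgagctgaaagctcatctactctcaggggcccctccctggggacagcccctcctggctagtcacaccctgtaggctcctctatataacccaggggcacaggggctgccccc
Myh3, chr11:67078050-67078299, plus strand: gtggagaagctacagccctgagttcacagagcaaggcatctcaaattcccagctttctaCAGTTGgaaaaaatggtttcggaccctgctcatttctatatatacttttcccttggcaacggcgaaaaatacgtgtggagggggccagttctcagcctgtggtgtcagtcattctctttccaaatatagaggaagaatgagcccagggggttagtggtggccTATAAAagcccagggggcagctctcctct
Chrna1, chr2:73580339-73580588, minus strand: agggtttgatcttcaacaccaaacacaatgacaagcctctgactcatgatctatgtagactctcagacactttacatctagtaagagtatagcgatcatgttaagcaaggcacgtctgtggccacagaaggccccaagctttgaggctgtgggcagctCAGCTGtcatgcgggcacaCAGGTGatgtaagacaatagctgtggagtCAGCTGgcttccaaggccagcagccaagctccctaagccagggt

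The Myog window held 2 matches to CANNTG, at 138 and 12 bases before the start, and the Chrna1 window held 3, at 92, 73 and 44 bases. The windows of Ckm and Myh3 each held 1, and Myh3 also had a TATAAA at 29 bases before its start. Across the 82 measured members of the muscle lists that were found in the RefSeq promoter table, 73.2% of windows held CANNTG, against 66.0% of all 27025 windows and 56.8% of the 8213 windows of measured genes. The lists differed, with 40.0% of 10 windows of myogenic factors, 80.0% of 20 of actins, myosins and tropomyosins, and 100% of 6 of troponins. A match to the MEF2 consensus, the site of the Mef2 co-regulators, was present in 12.2% of the muscle windows and in 1.69% of those of measured genes. The CArG box, the consensus of serum response factor, was present in 8.54% and 1.33%, and TATAAA in 17.1% and 6.89%. Over all 27025 windows the shares were 3.01% for MEF2, 1.40% for the CArG box and 12.97% for TATAAA. The share of TATAAA in the muscle windows was therefore nearer to that of all windows than to that of measured genes. These are counts of letters in short windows and not of bound sites.

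All 4 markers of differentiated muscle were measured on every array. Myog was at 5.32, 5.38, 5.72 and 5.90 in replicates 1 to 4 (5.58 ± 0.28, mean ± SD, n = 4), rank 554. Its probe lies at chr1:136188874-136188933 in the mm9 coordinates of the array files. Myh3, embryonic myosin heavy chain, was at 6.86, 6.46, 6.31 and 6.54 (6.54 ± 0.23), and its other measured probe had a mean of 6.50. Tnnt3, fast skeletal troponin T, was at 6.63, 6.91, 5.75 and 6.93 (6.55 ± 0.55). The lower value of replicate 3 was not present in the other probe of Tnnt3, which read 6.44, 6.31, 6.49 and 6.51. Their probes lie at chr11:66915724-66915783 for Myh3 and chr7:149698467-149698526 for Tnnt3. Ckm, the muscle creatine kinase that buffers ATP, had the lowest rank of the markers, at 0.31, 1.38, 0.57 and 1.26 (0.88 ± 0.52), rank 6249. Replicates 2 and 4 were the higher pair for Ckm, whose single probe spans chr7:20002222-20004829. Myog, Myh3 and Tnnt3 thus had bright signals, while Ckm lay near the middle of the measured genes.

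**Figure D1:**
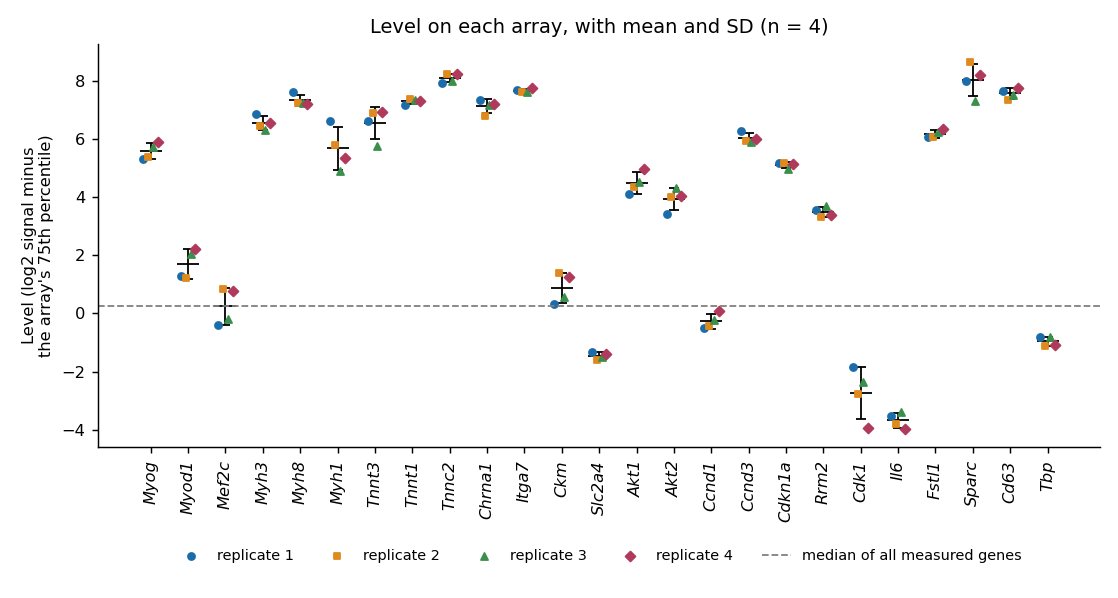
Level on each EXO-Post BSA array of 25 genes (vertical axis, log2 signal minus the array's 75th percentile), with 1 symbol per replicate and a bar for the mean and SD over 4 cultures. Sarcomeric, exosomal and matrix genes lie far above the dashed median of all measured genes (0.27), while Cdk1 and Il6 lie far below it.

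Among the 20 brightest genes with a current symbol, Actb, cytoplasmic actin, led at 8.45 ± 0.10, followed by Tpt1, the translationally controlled tumour protein, at 8.37 ± 0.08 and Ppia, cyclophilin A, at 8.15 ± 0.20. Myl4, the embryonic and atrial myosin light chain, stood at 8.14 ± 0.15 and Tnnc2, fast troponin C, at 8.09 ± 0.15. Sparc, a secreted matrix glycoprotein, stood at 8.03 ± 0.56 and Lgals1, galectin-1, at 7.85 ± 0.25. The imprinted non-coding RNA H19 was at 7.83 ± 0.11. Ribosomal protein genes of the set were Rpl41 (8.08), Rpl37a (8.04), Rps14 (7.99), Rps10 (7.89) and Rpl10 (7.87), and the mitochondrially encoded COX1 was at 7.90 ± 0.34. The predicted genes Gm10313 and Gm5523 and the RNA exosome subunit Exosc2, part of an RNA-degrading complex, (8.09 ± 0.02) completed the list with the 3 names of the next paragraph.

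Several of these top names rested on a single probe that the gene's other probes did not share. F10, coagulation factor X, was at 8.10 ± 0.21 by its brightest probe, while its other probe averaged -6.14 and did not rise well above background on any array. The same held for Slc10a1, the hepatic bile acid transporter (7.91 against -5.59), and for Kctd14 (8.04 against -4.43 and -5.23, each of these well above background on 2 arrays). H19 and Actb had a second probe at -3.85 and 2.48, and the predicted gene Gm5523 had one at -1.75. The second probe of Sparc averaged 1.61 over the 3 arrays with a usable spot. Of the 10 top genes that had another probe, 7 had their next brightest probe dimmer by over 3 units. Over the 2858 genes with several measured probes, the brightest and the dimmest differed by a median of 1.82 units. Of the 158 genes named by rule, 50 had another probe, and for 27 of these at least 1 was dimmer by over 3 units. Places within a list therefore hold for the brightest probe only. The cause of these gaps was not tested.

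Of 17 myogenic factors and related regulators, 15 were measured, with a median level of 0.67. Srf, serum response factor, was at 1.83 ± 0.20 and Myod1 at 1.70 ± 0.51. Myod1 read 1.30, 1.23, 2.05 and 2.23, higher in replicates 3 and 4, as did Myog. Pax7, the marker of satellite cells, was measured at -1.42 ± 0.35 and Myf6, the late myogenic factor, at -2.24 ± 0.26. Myf5, an early determination factor, did not rise well above background on any array, and Pax3 on 2 of 4. The Mef2 co-regulators spread widely by their brightest probes, from Mef2a at 0.74 ± 0.30 to Mef2b at -3.10 ± 0.38. The other measured probe of Mef2a averaged -1.63. Mef2c varied most within the list, at -0.40, 0.84, -0.19 and 0.76, with replicates 2 and 4 above the others as for Ckm.

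The troponins had the highest median of the muscle lists. All 8 troponins were measured with a median of 6.52, and 7 of them lay in the brightest band of genes, the brightest 25% of those measured. Fast and slow isoforms were both bright: Tnnc2 (8.09), Tnni2 (7.77 ± 0.45) and Tnnt3 are fast, and Tnnt1 (7.30 ± 0.08), Tnni1 (6.43 ± 0.25) and Tnnc1 (6.18 ± 0.27) are slow. Tnnt2, the cardiac and embryonic troponin T, was also bright (6.49 ± 0.58), with replicate 3 lowest at 5.69. The adult cardiac isoform Tnni3 stood apart at -3.57 ± 0.19.

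Of 23 actins, myosins and tropomyosins, 21 were measured (median 5.27), 14 in the brightest band. Developmental myosins were bright, with Myh8, perinatal myosin, at 7.33 ± 0.19 by its brightest probe and -0.02 by its other probe. Among the adult myosin heavy chains, Myh4 (type IIb) ran from 5.23 in replicate 4 to 6.70 in replicate 1 (6.04 ± 0.62), and Myh1 (type IIx) read 6.62, 5.80, 4.91 and 5.35. Both were highest in replicate 1, and Myh1 had the largest SD of the list (0.73). The slow Myh7 was at 3.98 ± 0.13, while Myh2 (type IIa) was at -1.20 ± 0.25 and cardiac Myh6 at -2.66 ± 0.19. Myl1, the fast essential light chain, was at 7.56 ± 0.53. The sarcomeric actins Actc1, the embryonic and cardiac form, and Acta1, the adult skeletal form, were at 7.18 ± 0.38 and 7.09 ± 0.28. Members of these families have similar sequences, and signal shared between their probes cannot be told apart here.

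Z-disc, M-band and giant sarcomeric proteins were measured for 29 of 32 members, with a median of 1.76. Myom2, an M-band protein, was brightest at 6.71 ± 0.24, then the chaperone Cryab at 6.53 ± 0.11 and the stress-responsive ankyrin protein Ankrd1 at 5.84 ± 0.25. The other probe of Cryab averaged 3.51. Trim63, the ubiquitin ligase MuRF1, varied most (1.07, 1.09, 0.02 and 1.34), and its other probe did not share the low value of replicate 3, at -0.59, -0.59, -0.09 and -0.45. Tmod4, a thin filament cap, was dimmest at -2.19 ± 0.43.

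Genes of excitation-contraction coupling, which ties the membrane signal to calcium release, were measured for 19 of 20 members (median 2.61), and 15 lay in the brightest band. Jsrp1, a junctional sarcoplasmic reticulum protein, was at 6.28 ± 0.05, Cacna1s, the voltage sensor of the T-tubule, at 5.21 ± 0.22, and Hrc, a calcium-binding protein of the reticulum, at 4.77 ± 0.11. The other probe of Cacna1s averaged 1.28. Ryr1, the calcium release channel, was at 2.89 ± 0.23. The calcium pumps Atp2a2 and Atp2a1 were at 3.02 ± 0.35 and 1.51 ± 0.30, and their regulator Sln, sarcolipin, did not rise well above background on any array. By its other measured probe Atp2a2 averaged -0.29, below Atp2a1. Jph2 varied most (SD 0.43) and Jph1 was dimmest (-2.21 ± 0.12), both being junctophilins that hold the membranes together.

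Acetylcholine receptor and junction genes were measured for 9 of 10 members (median 1.55). Chrna1, the alpha subunit, read 7.33, 6.80, 7.17 and 7.21 (7.13 ± 0.23) and Chrnd, the delta subunit, 5.51, 4.80, 5.47 and 5.56 (5.34 ± 0.36). The other probe of Chrna1 averaged 3.67. Replicate 2 was the lowest for both subunits, and the list's median deviation there was -0.23, the most negative of any of the 20 programme lists. The embryonic subunit Chrng was at 1.55 ± 0.25, and Chrne, which replaces it in adult muscle, was at -3.28 ± 0.27. Rapsn, which clusters the receptors, was bright on 3 arrays (5.15, 4.76 and 4.91) but lacked a usable spot on replicate 4.

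For fusion and adhesion, 12 of 15 genes were measured (median 3.07), all above 0. Itga7, the laminin receptor of muscle, was at 7.66 ± 0.07, Cav3, muscle caveolin, at 4.62 ± 0.44, and Cdh15, M-cadherin, at 4.42 ± 0.18. The fusion micropeptide Mymx, named Gm7325 on the array, was at 4.34 ± 0.43. Its partner Mymk, named Tmem8c on the array, read 4.00, 3.78 and 4.32 in replicates 1 to 3 and was left out of the measured genes because its spot on replicate 4 was marked as an outlier. Ehd2, an endocytic ATPase, varied most, at 2.40, 2.33, 2.37 and 1.15, and its other probe did not show the low value of replicate 4 (0.42, 0.49, 0.57 and 0.79).

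**Figure D2:**
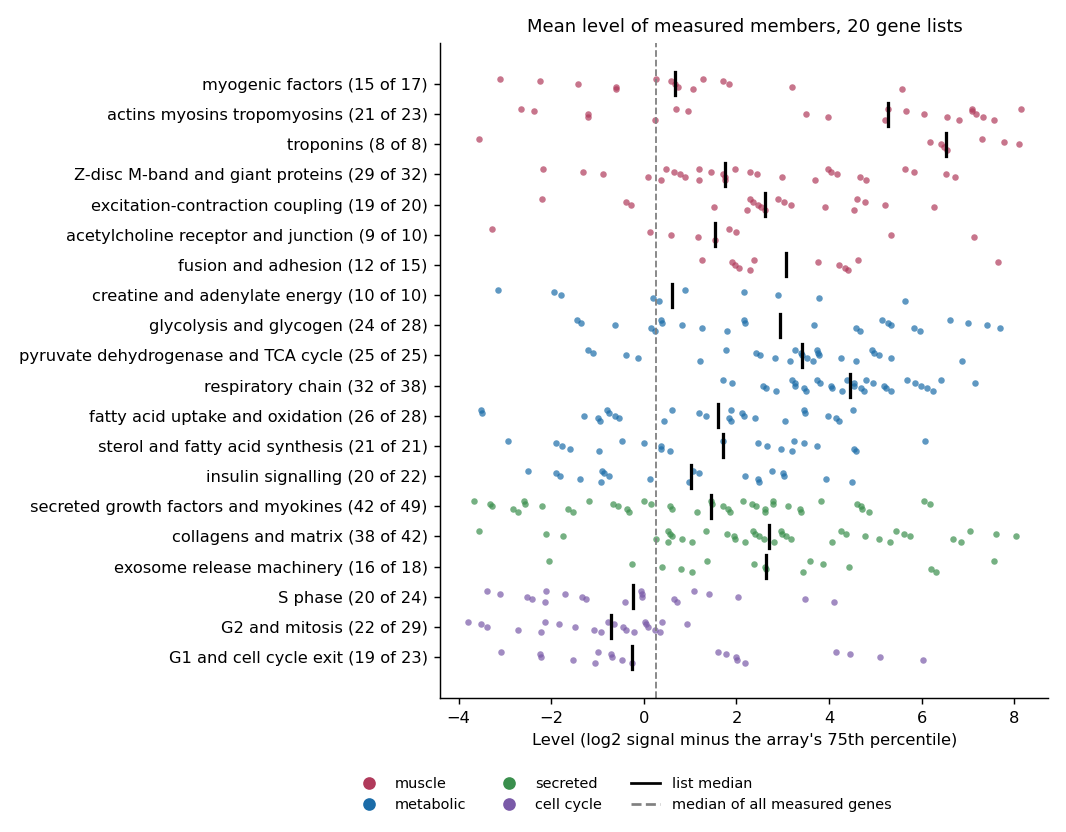
Mean level over the 4 cultures of each measured member (points) of 20 gene lists, with the list median (black bar) and the median of all measured genes (dashed, 0.27); labels give measured members of all members. Troponins (6.52), actins, myosins and tropomyosins (5.27) and the respiratory chain (4.46) have the highest medians, and the 3 cell cycle lists fall below the dashed line.

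The respiratory chain had the highest median of the metabolic lists. The order of the tricarboxylic acid cycle and glycolysis lists turned on the filter, since glycolysis had a median of 3.50 where 3 of 4 arrays sufficed and also without replicate 3. All 25 genes of pyruvate dehydrogenase and the tricarboxylic acid cycle were measured, with a median of 3.41, and 19 lay in the brightest band. Mdh2, mitochondrial malate dehydrogenase, was at 6.87 ± 0.19 and Cs, citrate synthase, at 5.34 ± 0.36. Sdhd, a membrane anchor of succinate dehydrogenase, varied most, at 4.00, 2.59, 4.40 and 4.14, with replicate 2 low. Its spot, at row 503 and column 83, lies in the corner of replicate 2 where low spots gather, as described below. The pyruvate dehydrogenase kinase Pdk1 was dimmest at -1.22 ± 0.42.

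Of 38 respiratory chain genes, 32 were measured with a median of 4.46, all above 0 and 30 in the brightest band. Cox6a1 was at 7.15 ± 0.19, the ATP synthase subunit Atp5b at 6.43 ± 0.41, and Cox8a, a further subunit of cytochrome oxidase, at 6.26 ± 0.03. Uqcrc1, a core subunit of complex III, was both dimmest and most variable (1.83, 2.37, 1.83 and 0.82), lowest in replicate 4. A further 5 members, among them Ndufa2 and Cox7b, were well above background where usable and were lost only to spots marked as outliers on 1 or 2 arrays.

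Glycolysis and glycogen genes were measured for 24 of 28 members (median 2.94), 12 in the brightest band. Gapdh was at 7.68 ± 0.37 and aldolase Aldoa at 7.42 ± 0.77, while muscle enolase Eno3 read 7.23, 6.91, 6.93 and 6.92. Aldoa read 7.51, 6.33, 8.13 and 7.71, lowest in replicate 2. Hk2, the insulin-responsive hexokinase, was at 1.26 ± 0.47. Slc2a4, the insulin-responsive glucose transporter GLUT4, was the dimmest measured member at -1.33, -1.59, -1.49 and -1.39 (-1.45 ± 0.11), rank 10841. Slc2a1, the basal transporter GLUT1, was at 2.19 ± 0.22.

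Creatine and adenylate genes were all measured (10 of 10, median 0.61) and had the highest median SD of the 20 lists, 0.37. Ak1, adenylate kinase, led at 5.64 ± 0.38, followed by the creatine transporter Slc6a8 (3.79 ± 0.13) and Gamt, which methylates guanidinoacetate to creatine (2.90 ± 0.25). Ampd3, the AMP deaminase of red cells, was dimmest and most variable (-3.15 ± 0.53).

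Fatty acid uptake and oxidation genes were measured for 26 of 28 members (median 1.59). Acadvl, the very long chain acyl-CoA dehydrogenase, was at 4.53 ± 0.20, the thiolase Acaa2 at 4.22 ± 0.28 and Etfb, an electron transfer flavoprotein, at 4.16 ± 0.25. Cpt1b, the muscle form of the enzyme that admits fatty acids to mitochondria, was dimmest at -3.51 ± 0.21, and the liver form Cpt1a was at 1.35 ± 0.19, with its other probe at -1.89. Ppargc1a, the coactivator of mitochondrial biogenesis, was similarly dim at -3.49 ± 0.16. Esrra, an orphan nuclear receptor, read 2.59, 2.38, 2.69 and 0.96, low on replicate 4. Its spot, at row 185 and column 84, adjoins another low spot of that array, that of Col5a2 at row 184.

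All 21 genes of sterol and fatty acid synthesis were measured (median 1.71). Scd2, a stearoyl-CoA desaturase, was at 6.07 ± 0.38, Hmgcs1, HMG-CoA synthase, at 4.57 ± 0.22 and Fdps, which makes farnesyl pyrophosphate, at 4.55 ± 0.34. The elongase Elovl6 varied most (0.54, -0.18, -0.79 and -1.47).

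Insulin signalling genes were measured for 20 of 22 members with a median of 1.03. Akt1 read 4.10, 4.35, 4.53 and 4.98 (4.49 ± 0.37) and Akt2, the isoform linked to glucose uptake, 3.41, 4.01, 4.31 and 4.03 (3.94 ± 0.38). The other probes of Akt2 averaged 3.83 and -0.31. The kinase Gsk3a was at 3.02 ± 0.23 and Irs1, an insulin receptor substrate, at 2.50 ± 0.27, with its other probe at -2.36. The insulin receptor Insr was at -1.90 ± 0.33, and Tbc1d4, which restrains GLUT4 traffic, was dimmest at -2.51 ± 0.52. Rptor, a subunit of the mTORC1 complex, varied most, at 2.73, 2.33, 1.31 and 2.41. The adaptor Grb10 did not rise well above background on any array.

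Among 49 secreted growth factors and myokines, 42 were measured, with a median of 1.46. Fstl1, follistatin-like protein, was at 6.18 ± 0.13, Mif, macrophage migration inhibitory factor, at 6.05 ± 0.18 and Igfbp6, an IGF-binding protein, at 4.85 ± 0.23. Igf1 was at 2.62 ± 0.08 and Igf2, on its single probe, at -1.65 ± 0.15. Il6, the exercise myokine, was the dimmest measured member at -3.52, -3.81, -3.40 and -3.97 (-3.67 ± 0.26), rank 14652. Hgf, which activates satellite cells, varied most, with replicate 3 lowest at -3.57. Mstn, myostatin, Apln and Ostn did not rise well above background on any array.

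Matrix genes were measured for 38 of 42 members (median 2.70), 23 of them in the brightest band. After Sparc, the brightest were Timp2, an inhibitor of metalloproteinases (7.61 ± 0.22), and Col1a2, a chain of type I collagen (7.05 ± 0.29). The other probe of Timp2 averaged 3.86, and that of Sparc was dimmer too, as given above. Col3a1 was at 6.67 ± 0.17 and Fn1, fibronectin, at 6.86 ± 0.43. Eln, elastin, was dimmest at -3.57 ± 0.39, and the gelatinase Mmp9 did not rise well above background on any array. Sparc read 7.99, 8.64, 7.29 and 8.21.

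Genes of exosome release were measured for 16 of 18 members (median 2.63). The tetraspanins of vesicle membranes were brightest, with Cd63 at 7.66, 7.34, 7.50 and 7.77 (7.57 ± 0.19), Cd81 at 6.31 ± 0.19 and Cd82 at 6.20 ± 0.10. The other probes of Cd82 averaged 2.52 and 1.71. Rab11a, a GTPase of recycling endosomes, varied most (-0.43, 1.06, 0.59 and 0.33), and the ATPase Vps4a was dimmest at -2.05 ± 0.44. Rab27a, a GTPase of vesicle docking, did not rise well above background on any array, while its relative Rab27b was at -0.26 ± 0.20.

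The cell cycle lists lay below the median of all measured genes. In the G2 and mitosis list, 22 of 29 members were measured with a median of -0.71 and none in the brightest band. Birc5, survivin, was brightest at 0.93 ± 0.41, then Cdc20, an activator of the anaphase-promoting complex, at 0.39 ± 0.22 and Cdca8, borealin, at 0.34 ± 0.43. The other probes of Birc5 averaged -2.07 and -3.26 and that of Cdca8 -3.22, so that these places rest on 1 probe. Mki67, the proliferation antigen, was at 0.25 ± 0.07 and its other probe at 0.18. Ccnb1, cyclin B1, read -0.81, -0.72, -0.79 and -0.80. Cdk1, the mitotic kinase, varied most, at -1.83, -2.78, -2.36 and -3.94, and Ndc80, a kinetochore protein, was dimmest at -3.80 ± 0.46. Aurkb, Cenpf and Ttk did not rise well above background on any array.

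S phase genes were measured for 20 of 24 members, with a median of -0.24. Ung, uracil glycosylase, was both brightest and most variable (3.24, 4.20, 3.74 and 5.24), followed by Rrm2, a ribonucleotide reductase subunit, at 3.48 ± 0.17 and the helicase subunit Mcm6 at 2.04 ± 0.34. Pcna, the sliding clamp, read 1.32, 2.95 and 2.57 in replicates 2 to 4 and lacked a usable spot on replicate 1.

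In the G1 and exit list, 19 of 23 members were measured with a median of -0.27. Ccnd3, the cyclin D of differentiating muscle, was at 6.03 ± 0.17 and Cdkn1a, the inhibitor p21, at 5.18, 5.16, 4.97 and 5.13 (5.11 ± 0.10). The other probe of Cdkn1a averaged -2.58. Gadd45a, a stress-induced growth arrest gene, was at 4.46 ± 0.45. Ccnd1, a cyclin D of proliferating cells, read -0.49, -0.45, -0.21 and 0.07 (-0.27 ± 0.26), and Ccnd2 was at -1.06 ± 0.03. E2f4, a repressor of the E2F family, was dimmest and most variable (-3.09 ± 0.78). Ccne2 and Cdkn2a did not rise well above background on any array.

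**Figure D3:**
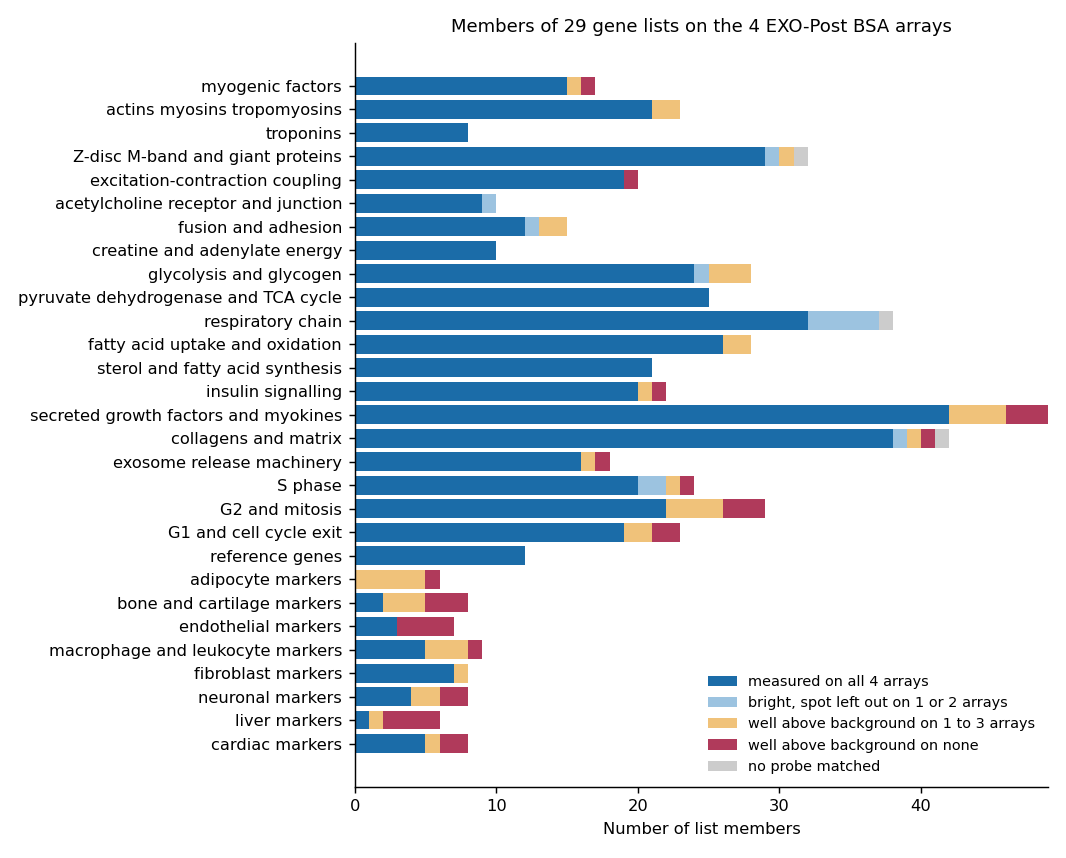
Number of members of each of 29 gene lists (bars) by how the 4 EXO-Post BSA arrays reported them. Muscle and metabolic lists were measured nearly in full, including 8 of 8 troponins and 25 of 25 genes of the tricarboxylic acid cycle list, whereas 0 of 6 adipocyte and 1 of 6 liver markers were. Of the adipocyte markers, 5 were well above background on some arrays.

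Of 60 markers of other cell types, 27 were measured, a share near that of all gene names on the array (46.9%), whereas 113 of 125 muscle list members were. None of 6 adipocyte markers was measured, but 5 of them were well above background on some of the arrays. Of 6 liver markers only Serpina1a was measured (-3.83 ± 0.29), and 4 were well above background on none. Of 7 endothelial markers, 3 were measured, and Cdh5, Tek, Emcn and Tie1 did not rise well above background on any array. Kdr, the VEGF receptor, stood out at 2.20 ± 0.19, but its other probe averaged -6.62. Of 9 leukocyte markers, 5 were measured. Itgam was at 4.03, 3.24, 3.48 and 2.55, while its other measured probe averaged -4.05, and Lyz2 did not rise well above background on any array. Runx2, the bone factor, was at -3.76 ± 0.32 and the cartilage factor Sox9 at -0.79 ± 0.13, and Ibsp, Sp7 and Col2a1 had no array well above background. Neuronal Snap25 was at 2.84 ± 0.54 and Nefm at -3.96 ± 0.19. Of 8 cardiac markers, 5 were measured, all below 0. The fibroblast list was the exception, with 7 of 8 measured and a median of 3.28, led by S100a4 (7.77 ± 0.46), Vim (6.06 ± 0.44) and Ly6a (4.41 ± 0.37). Vim, vimentin, is also expressed by cultured myogenic cells. Pdgfra and Dpt of the same list were at -1.51 ± 0.27 and -2.36 ± 0.25.

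The 12 reference genes had a median of 5.92. Actb, Ppia and Rplp0 (7.75 ± 0.17) were the brightest, and Tbp, the TATA-binding protein, was dimmest at -0.82, -1.12, -0.82 and -1.07 (-0.96 ± 0.16). Eef1a1, an elongation factor, varied most at 6.38, 6.33, 5.27 and 5.02, with replicates 3 and 4 low, and its other probe read 5.72, 5.87, 5.85 and 5.28.

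The median SD between the 4 cultures was 0.27 for muscle, 0.26 for metabolic, 0.27 for secreted and 0.28 for cell cycle genes. Across the measured genes, Pearson correlations between arrays ran from 0.974 to 0.983, and the median absolute difference between arrays of a pair from 0.299 to 0.336. Replicates 1 and 2 had the highest correlation and the smallest difference, whereas the 3 pairs with replicate 4 had the lowest correlations. Only replicates 1 and 2 share a scan identifier in their file headers, which was taken to mean 1 slide. Genes are not independent replicates, and no p-value is attached to these correlations. Between 48.3% (replicate 4) and 66.8% (replicate 2) of probes were well above background on an array. For the 20 programme lists, no median deviation on an array left the range from -0.23 to 0.22.

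The SD between the 4 cultures had a median of 0.29 over all measured genes, with quartiles of 0.20 and 0.42. It fell from 0.35 in the dimmest band of genes to 0.27 in the brightest. The median SD of the 20 programme lists ran from 0.22 to 0.37. Among 243 measured probes printed 10 times on each array, the copies on 1 array had a median SD of 0.297, and the mean of the copies varied between cultures with a median SD of 0.186. For most genes, which had a single spot, the median SD between cultures (0.29) was close to that between copies of a spot on the same array. Spread between cultures and spread between spots cannot be told apart for them.

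**Figure D4:**
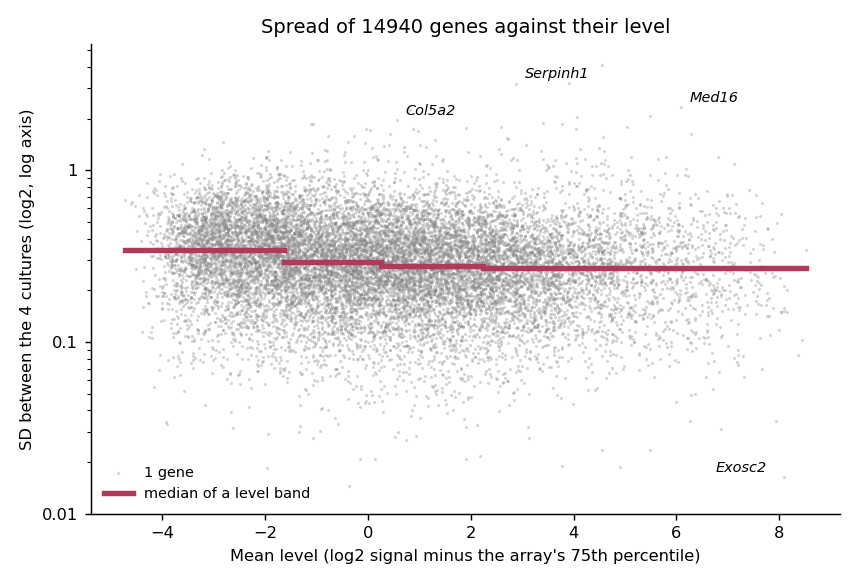
SD between the 4 cultures (log axis, log2 units) against mean level for 14940 genes (points), with the median SD of each of 4 bands of genes by level (bars). The bars decline from 0.35 to 0.27 from dim to bright, and single genes such as Serpinh1, Med16 and Col5a2 stand far above them.

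The genes with the largest SD had 1 array well away from the median of the 4, though the other arrays also differed for several of them. Serpinh1, the collagen chaperone, read 3.90, 4.75, -1.87 and 4.74, low on replicate 3. Med16, a Mediator subunit, read 7.05, 7.69, 6.96 and 2.63, while its other probe read 1.78, 1.82, 1.60 and 2.18 without the drop on replicate 4. Col5a2, a chain of type V collagen, read 1.51, 1.41, 1.69 and -2.37, and Ndufb9 of complex I 6.49, 6.03, 5.18 and 2.47. Of the 20 genes with a current symbol and the largest SD, the array farthest from the median was replicate 4 for 17 that were low there and for Adat1, which was high there, and replicate 3 for Serpinh1 and Rab3ip, both low there. The low ones included Gcm1, Lrrc20, Tmem41a, Trappc2l, Asl, Apoa2 and 8 predicted genes. Without replicate 4, 2 of these 20 remained among the 20 largest. The list turned over as much under other filters, with 2 kept where 3 of 4 arrays sufficed and 1 with no filter on dim probes.

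Their places on the array were recorded beside these values. Of 20150 spots usable and well above background on all arrays, 232 were lower by more than 1.5 on replicate 4 than the median of the other arrays while those others lay within 1.2 of each other. On the other arrays, 24 to 35 spots were low in this way. Of the 232, 115 lay in the first of 4 equal blocks of the array's rows, which held 23.6% of the spots considered, and 9 of the 17 most variable genes low on replicate 4 lay there too. On replicate 2, 22 of 24 low spots lay in 1 corner block that held 5.91% of the spots considered. On replicate 3, 16 of 35 lay in 1 block that held 6.10%, and on replicate 1, 12 of 26 lay in 1 block that held 6.43%. The low spots of replicate 4 included those of Esrra and Cdk1, and the low spots of replicate 2 included that of Sdhd. The Serpinh1 spot was among the 16 low spots of the block on replicate 3. The part of spot position in these results was not tested.

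**Figure D5:**
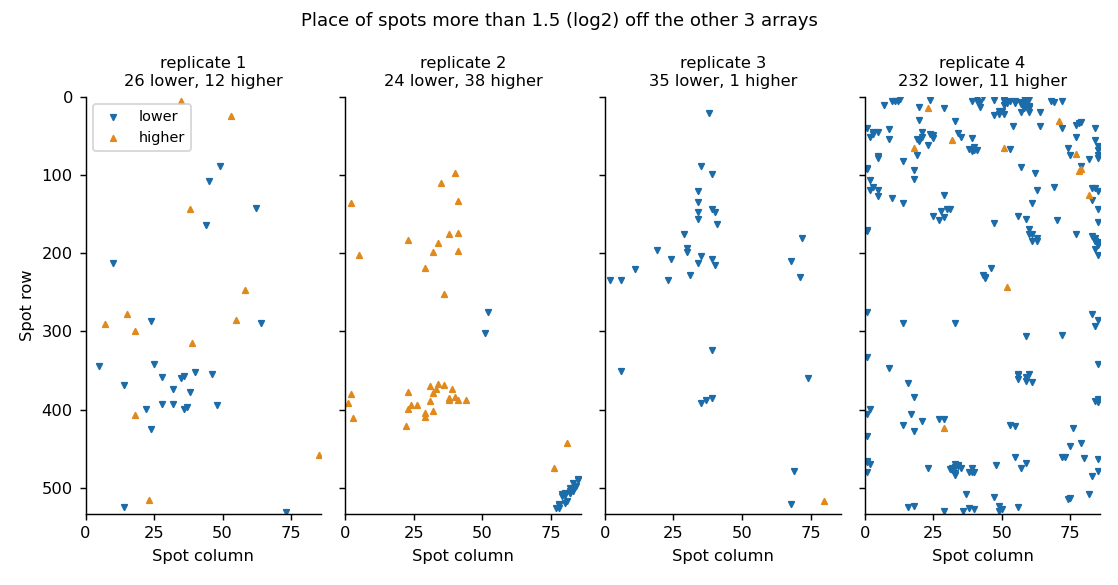
Row and column of spots that stood more than 1.5 (log2) below (blue) or above (orange) the median of the other 3 arrays, 1 panel per EXO-Post BSA replicate. Low spots on replicate 2 sit in a corner (22 of 24), and 115 of the 232 on replicate 4 sit in the first of 4 blocks of rows.

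A second probe for the same gene gave a further reading of the spread. Of 2460 genes with a current symbol and several measured probes, 32 had an SD over 1 by their most variable probe and 0 by every probe. At an SD over 0.5 the counts were 717 and 53. The share expected for unrelated probes was not computed. A large SD by every probe does not mean that the probes moved together. Over the 4 arrays the correlation of the 2 probes was -0.41 for Mocs2 and -0.81 for Asxl2, against 0.78 for Rab3c and 0.87 for Tnc. By its least variable probe, the largest SD was that of Rab3c, a GTPase of vesicle transport. Its 2 probes averaged 2.88, 2.64, 1.69 and 1.11, higher in replicates 1 and 2 than in 3 and 4. Tnc, the matrix protein tenascin C, averaged -3.05, -1.31, -1.91 and -2.11 over its 2 probes, lowest in replicate 1. These genes were chosen after their values were seen.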

How the data were processed

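Single-colour Agilent arrays of 4 EXO-Post BSA cultures were used, grouped by the labels' descriptions as control replicates 1 to 4. The labels name them biological replicates. The cell line label runs from C2C12 to other numbers across these samples, whereas their source name gives C2C12 throughout. The authors' scanner software extracted the deposited files; per the file headers their processed signal is an intensity already corrected for background, and the version was 11.5.1.1 for replicate 3 and 10.7.3.1 for the others, whereas the submitters' notes name Agilent Feature Extraction 9.1. The authors also deposited normalised log2 values, whose 4 columns share a median of 6.65 and which were used as an alternative after joining them by row order (rank correlation with the scanner signals 0.995 to 0.998).

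Control spots and spots marked as outliers (150 to 371 an array) were left out, copies of a probe were averaged, and log2 intensities were centred on each array's 75th percentile (726 to 1159 on the linear scale). No spot was saturated, and the spike-in controls had log-log slopes of 0.923 to 1.00. Of the measured names, 10682 were symbols and 1514 synonyms in the RefSeq table of GRCm38.p6. Error is the SD over 4 arrays, whose number limits the precision. Named genes were the 4 markers, the 20 brightest and 20 most variable with a current symbol, the 3 brightest, the dimmest and the most variable member of each list, members above background on no array, and 8 genes the study measured otherwise; further list members were named for their role with their values known. Some genes that this rule names are not reported here. The members and lists were chosen with earlier results of these data known. The 3 other columns of the authors' table belong to the other group and were not used. Alternatives (13) covered background correction, with limma 3.58.1 in R 4.3.3 (normexp, offset 50, on median spot signals because replicate 3 lacks mean signals), normalisation, filters, the rule for several probes and leaving out each array. The scripts ran in Python 3.11.15 with pandas 2.3.3 and were tested on simulated data.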

Additional observations from a re-analysis of the deposited data

Results flagged for a closer look

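Of the 158 genes named by rule, 17 had 1 array whose gap to the nearest other exceeded Dixon's critical share of the range of the 4 levels. By chance this holds for about 1 gene in 20, and 5.60% of all measured genes met this. Of these 17, 10 are among the 20 genes picked for their large SD. Replicate 4 stood apart for Med16 (2.63), Col5a2 (-2.37), Lrrc20 (-2.64), Asl (-2.56) and the predicted genes Gm5471 (1.44), Gm15427 (3.83), Gm16477 (2.24) and Gm4859 (0.44), all lower there, and for Adat1 (-0.63), higher there. Replicate 3 stood apart for Serpinh1 (-1.87). Among the other 138 named genes, 7 met the criterion, a share of 5.07%. Some of the 138, Chrnd and Ehd2 among them, were named as the most variable of their list. This set too was therefore partly picked for spread. Replicate 1 was the higher one for the perinatal myosin gene Myh8 (7.61), the calcium-binding Hrc (4.94) and muscle enolase Eno3 (7.23). Replicate 2 was low for the receptor subunit Chrnd (4.80), replicate 3 high for Etfb (4.54), and replicate 4 low for Ehd2 (1.15) and high for H19 (7.99). The other probe of Adat1 read -3.58, -3.45, -3.04 and -3.74, without the rise on replicate 4.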

How the results depend on the processing

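No paired analysis was possible because a single group was described. Quantile normalisation and the 75th percentile over measured probes moved no list median by more than its SD between arrays, nor did centring on the median, which raised the median SD between cultures to 0.37. That SD was 0.32 when 3 of 4 arrays sufficed, 0.51 with no filter on dim probes, 0.31 with the authors' values and 0.28 with the median over probes. Leaving out 1 array at a time gave 0.27 to 0.29 and 14946 to 16854 measured genes, against 31829 with no filter. Leave-one-out ranges of list medians were 2.71 to 2.83 for matrix, 6.41 to 6.79 for troponins, 2.88 to 3.50 for glycolysis, 3.02 to 3.90 for fusion and -0.995 to -0.673 for G2 and mitosis. Keeping spots marked as outliers gave 1.69 for receptor and junction, 3.76 for fusion and 3.45 for glycolysis genes; requiring 3 of 4 arrays gave 1.69, 3.76, 3.50 and, for G2 and mitosis, -0.93. With no filter the medians were 1.69 for receptor and junction, 2.38 for fusion, 2.18 for glycolysis, 1.27 for fatty acid oxidation, 0.57 for myokines, -1.49 for G2 and mitosis and -0.69 for G1 and exit. Normexp gave 4.26 for the respiratory chain and -0.52 for G2 and mitosis, and the authors' values gave 3.62 for the tricarboxylic acid cycle and -0.56 for G2 and mitosis. The median over probes gave 3.98 for actins and myosins, 2.36 for excitation-contraction coupling, 2.18 for glycolysis, 0.39 for fatty acid oxidation, 0.45 for insulin signalling, 0.99 for myokines, 2.50 for matrix, -0.83 for S phase, -0.86 for G2 and mitosis and -0.48 for G1 and exit. Of 158 named genes, 53 moved by more than their SD under normexp, 47 with the authors' values and 24 with the median over probes. Dim signals limit the dimmest genes. Whether background correction bears more on dim than on bright genes was not tested.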
